A study of Mus musculus with 4 samples.

Results

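The effect of fever-range heat on mouse T helper 17 (Th17) cells carrying a Smad4 knockout (KO) label was read from 2 of the 4 libraries of the study, 1 cultured at 37 °C and 1 at 39.5 °C. Both were chosen by their genotype label alone, and genes were ranked by the difference between them. All 4 cultures began with naive CD4+ T cells sorted from C57BL/6 mice, out of spleen and lymph nodes, and received IL-6 with TGF-β1 (interleukin 6 and a transforming growth factor β) for 3 days in vitro. The other 2 libraries are wild type (WT) at 37 and 39.5 °C and serve here as the comparison. No source used here gives the kind of Smad4 allele, the promoter of any Cre, the number of mice or whether mice were pooled. Each group is 1 library, so no value below has a replicate check and no p-value is given. Intervals are 95% exact Clopper-Pearson intervals on ratios of levels scaled to library size, computed from recovered reads. They cover counting error only.

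Th17 cells are CD4+ T cells that secrete IL-17A and IL-17F, and IL-6 together with TGF-β is the classical cytokine pair that induces them. SMAD4 joins the SMAD proteins that TGF-β receptors activate and enters the nucleus with them. In T cells TGF-β signalling also induces Foxp3, the lineage factor of regulatory T (Treg) cells. Raised temperature loads the protein-folding machinery. HSF1 induces the cytosolic chaperones, the unfolded protein response serves the endoplasmic reticulum (ER), and the hypoxia-inducible factor (HIF) drives glucose uptake and glycolysis in activated T cells.

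Levels are in RPKM, which counts reads for each kilobase of exon and is scaled to library size. A log2 difference is log2(RPKM + 1) at 39.5 °C minus the same at 37 °C, a scale that understates changes in genes with low levels. Where 4 levels are listed for a gene, the order is WT at 37 °C, WT at 39.5 °C, then the libraries labelled Smad4 KO, 37 before 39.5 °C. A row was tested when its mean over the 4 libraries was at least 1 RPKM, which 13715 of 19555 rows met. Whole reads recovered from the RPKM values came to between 18047831 and 18473822 per library. The 2 libraries labelled Smad4 KO were the most alike in depth, at 18473100 and 18473822 reads. The library sizes behind their RPKM values were less alike, at 17639131 and 18410930.

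The targeted gene was examined first. Smad4 stood at 14.0, 14.2, 20.7 and 21.3 RPKM, so both libraries with the KO label were above both WT libraries. Between the temperatures its ratio with the KO label was 1.03, with an interval (0.955 to 1.11) that holds 1. A value summed over all exons cannot tell whether some of them are lost, and no source used here names the deleted exons. Genotype is therefore written as the label throughout.

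Markers of CD4+ T cells had similar sums at both temperatures, while single members differed. Cd4 was at 212 and 208 RPKM, Cd3e at 53.1 and 54.7 RPKM and the T cell receptor constant gene Trac at 599 and 634 RPKM with the KO label. The 12 markers summed to 3391 and 3404 RPKM, with log2 differences from −0.75 for Cd2 to 0.86 for Zap70. Other lineages were scarce but not constant. Of 12 myeloid and dendritic marker rows 5 were tested, and 2 of them were at least 2-fold lower, against 0.911% of all genes. The list summed to 82.6, 103.5, 201 and 144 RPKM. Most of that sum came from Cst3 (63.1 and 69.1 RPKM with the KO label), H2-Ab1, Ly6g and Cd74. Other members of the list, Lyz2 (8 reads, then 1), Csf1r (7 and 5), Cd14 (1 and 1) and Fcer1g (1 and 0), were near 0 with the KO label. B cell markers summed to 10.1 and 5.18 RPKM over 4 rows, with Ighm at 8.69 and 3.37 RPKM and Ighd at 2 reads and 0. CD8 and NK markers summed to 8.14 and 11.3 RPKM over 5 rows, with Nkg7 at 1.67 and 6.66 RPKM. The γδ T cell constant gene Tcrg-C1 had 24 reads in each library labelled Smad4 KO and none in WT. In bulk RNA, fewer cells of a type and less RNA per cell cannot be told apart.

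At 39.5 °C the library labelled Smad4 KO had 103 genes at least 2-fold higher, which is 0.751% of those tested, and 125 at least 2-fold lower, which is 0.911%. The median difference of all tested rows was −0.01, with 48.7% of rows above 0 and 51.3% below. At 3-fold the counts were 22 higher and 34 lower, and at 4-fold 9 and 18. Of the higher genes 65 were protein coding, and of the lower genes 89. Reads were few for 25 of the higher and 15 of the lower genes, which had under 50 over the pair. Genes just inside the rule included Ramp3 (3.29 to 7.60 RPKM) and Vim (246 to 123 RPKM), and just outside were Cd68 (3.61 to 8.17 RPKM) and Fos (3.76 to 1.39 RPKM).

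**Figure D1:**
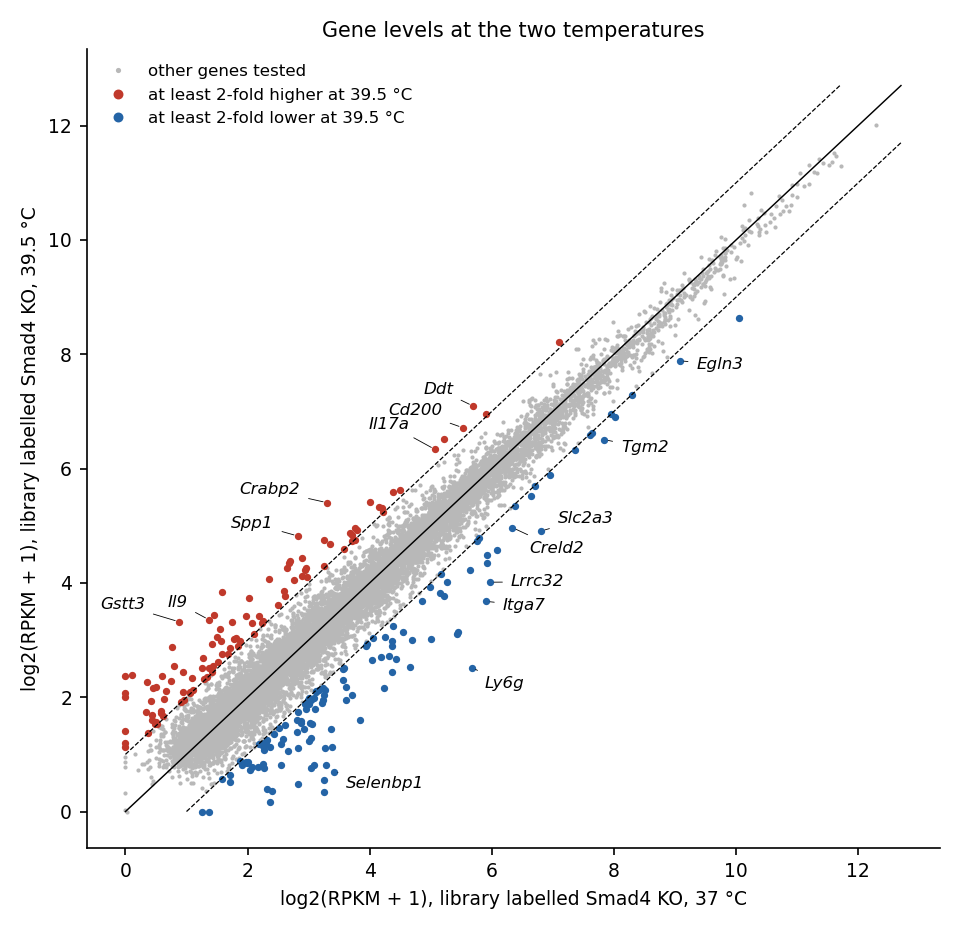
Level of each tested gene in the libraries labelled Smad4 KO, as log2(RPKM + 1) at 37 °C on the horizontal and at 39.5 °C on the vertical axis; each point is 1 gene, the solid line marks equality and the dashed lines the 2-fold rule. The 103 genes above the upper line (red) and the 125 below the lower line (blue) lie around a narrow band, with Egln3 among the most abundant genes outside it.

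The lower and the higher genes stood differently against WT. Of the 125 lower genes, 110 (88%) had their highest level of all 4 libraries in the one labelled Smad4 KO at 37 °C, as did 4031 of the 7034 tested genes with a difference below 0 (57.3%). The rule uses the level in that library, and a larger difference favours the highest place, so this share is a description. At 39.5 °C, 80 of the 125 (64%) were still above both WT libraries, and 32 were below both. Their median levels were 2.22, 1.65, 8.55 and 2.88 RPKM in the 4 libraries. The higher genes were at 3.31, 6.85, 1.99 and 7.24 RPKM, and 75 of the 103 (72.8%) were lowest with the KO label at 37 °C, as were 58.9% of the 6681 tested genes with a difference above 0. The WT difference was above 0 for 88 of the 103 higher genes, beside 3821 of the 6681 tested genes above 0. It was below 0 for 82 of the 125 lower genes, beside 4479 of the 7034 tested genes below 0. At the 2-fold rule, which 1.46% of tested genes passed upward and 0.525% downward in WT, 46 of the higher and 19 of the lower genes passed in WT as well.

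Among the largest increases were Gstt3 and Crabp2. Gstt3, a theta-class glutathione S-transferase that conjugates glutathione to electrophiles, stood at 0.814, 4.57, 0.841 and 8.98 RPKM. Its ratio in the libraries labelled Smad4 KO was 10.7 (8.13 to 14.3) and its log2 difference 2.44, against 1.62 in WT. Crabp2, which carries retinoic acid to its nuclear receptor, was at 17.6, 80.6, 8.88 and 41.3 RPKM, and its log2 differences of 2.10 and 2.13 were close in the 2 genotypes. Both temperatures of the KO label lay below their WT counterparts for Crabp2, whereas Gstt3 was highest at 39.5 °C with the KO label.

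Several secreted or surface proteins followed the same direction. Spp1, which encodes osteopontin, was at 6.09 and 27.2 RPKM with the KO label, a ratio of 4.47 (3.80 to 5.29). Il9, a cytokine gene, was at 1.59 and 9.22 RPKM, a ratio of 5.81 (3.35 to 10.8) that rests on 15 and 91 reads. Il1r2, the decoy receptor that binds IL-1 without signalling, was at 9.38, 28.4, 5.50 and 19.8 RPKM, with a ratio of 3.60 (3.06 to 4.26). Angptl2, an angiopoietin-like secreted protein, was at 7.87, 38.2, 5.38 and 19.5 RPKM, with a ratio of 3.62 (3.31 to 3.97). For Il1r2 and Angptl2, as for Crabp2, the highest level of the 4 libraries was in WT at 39.5 °C. Chemokine genes shared this direction, with 7 of 7 tested members above 0 and a median of 0.71, against 1.26 in WT. Ccl3 had 1 read at 37 °C and 60 at 39.5 °C, and Cxcl3 was at 0.259 and 2.36 RPKM.

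Transcription factors among the larger increases were Twist1 and Zbtb32. Twist1, a basic helix-loop-helix repressor, stood at 0.944, 4.49, 0.279 and 3.80 RPKM (8 and 114 reads with the KO label). Zbtb32, a zinc-finger repressor of lymphocyte proliferation and cytokine genes, stood at 15.5, 63.4, 5.29 and 18.1 RPKM. Both were lowest with the KO label at 37 °C. A smaller set was higher mainly with the KO label. Serpina3g, a serine protease inhibitor gene of activated T cells, was at 0.365, 0.615, 2.34 and 8.98 RPKM, with log2 differences of 1.58 with the KO label and 0.24 in WT. Lad1, which encodes the filament-anchoring protein ladinin, was at 25.6, 32.0, 4.10 and 15.7 RPKM, with differences of 1.71 and 0.31. Gucy1a3, a subunit of soluble guanylate cyclase, was at 1.46, 1.24, 2.91 and 9.74 RPKM, with differences of 1.46 and −0.13. Gucy1a3 and Serpina3g stood above both WT libraries at either temperature. Among the 20 largest increases, 7 rows rested on under 20 reads over the pair, among them the T cell receptor joining segments Traj33 (2 and 14 reads) and Traj52 (2 and 12), and are not described further.

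**Figure D2:**
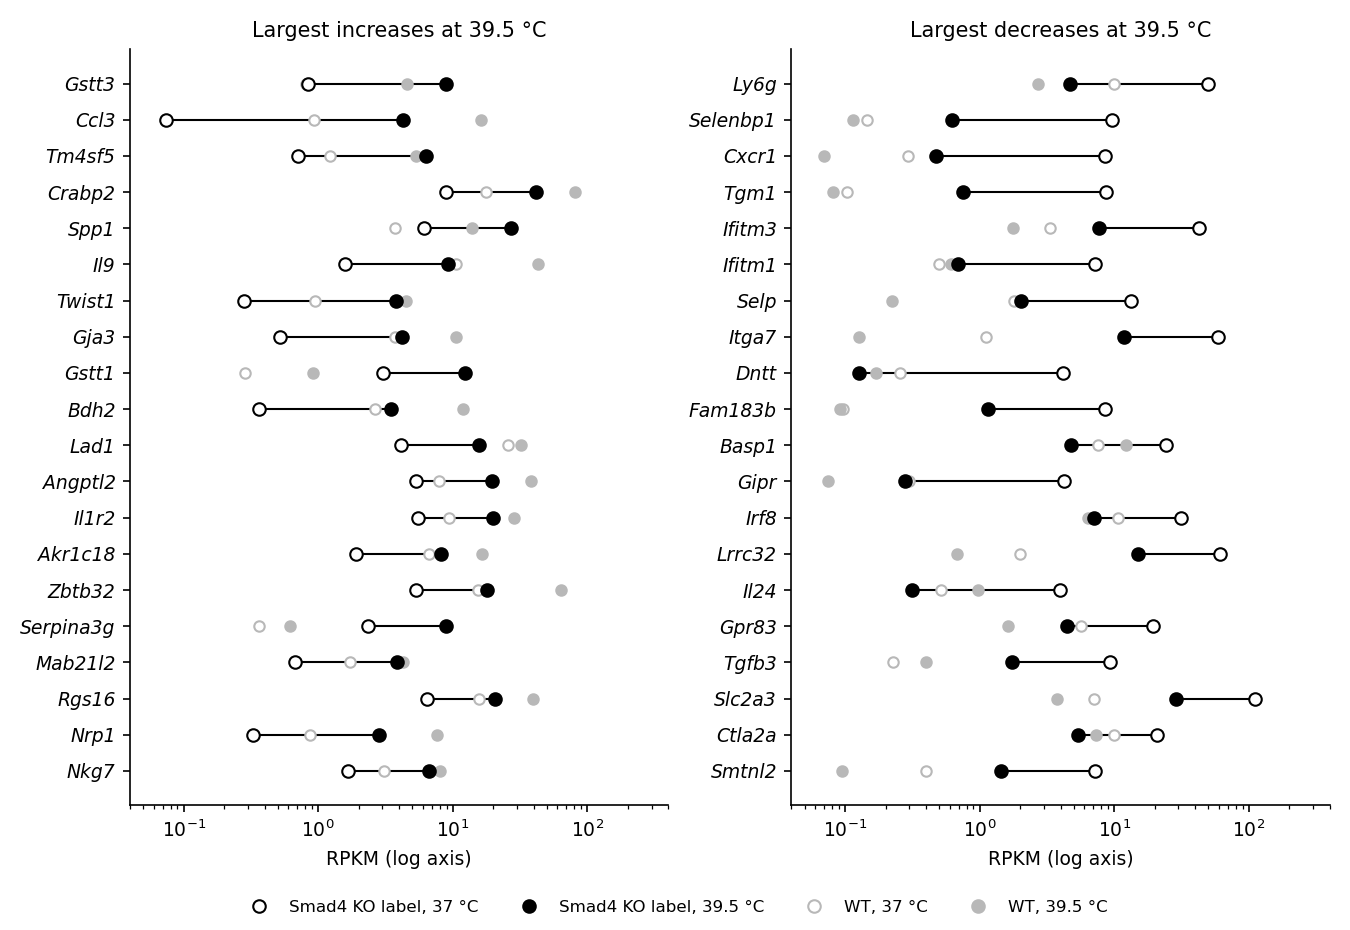
RPKM on a log axis in all 4 libraries for the 20 largest increases (left) and 20 largest decreases (right) among tested genes with at least 50 reads over the pair, predicted, clone-named and unreported rows left out; black points are the libraries labelled Smad4 KO (open 37 °C, filled 39.5 °C, joined by a line) and grey points WT. On the right every open black point lies beyond both grey points, and on the left many filled grey points lie beyond the black ones.

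Gstt3 was 1 of 4 neighbouring genes that passed together, a group picked out after their values were seen. Ddt, Gstt3, Gstt1 and Gstt2 lie in this order on the minus strand of chromosome 10, from 75771230 to 75837424 (GRCm38), with no other tested protein-coding gene between them. Ddt encodes D-dopachrome tautomerase, a relative of the cytokine MIF. It stood at 59.9, 80.5, 50.8 and 135.5 RPKM, with a ratio of 2.67 (2.45 to 2.92) with the KO label. Gstt1 stood at 0.287, 0.915, 3.04 and 12.3 RPKM, a ratio of 4.04 (3.17 to 5.21). Gstt2 stood at 13.6, 19.7, 15.0 and 41.9 RPKM, a ratio of 2.80 (2.61 to 3.00). All 4 genes were highest with the KO label at 39.5 °C, and their log2 differences of 1.40 to 2.44 exceeded those of 0.42 to 1.62 in WT. The tested genes on either side moved less. Cabin1 had a difference of 0.51 and Mif of 0.30, and Derl3, the next gene after Mif, had −0.83. The Gstt genes are paralogs, and reads between them can be uncertain by gene. Among 8897 placed protein-coding genes there were 3 such runs of higher neighbours with 8 genes in all, and 5 runs of lower neighbours with 11 genes. Among the lower runs were Ifitm2, Ifitm1 and Ifitm3, Ly6c1 with Ly6g, Gpr83 with Izumo1r, and Il24 with Il10.

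Among the largest decreases were Ly6g and Cxcr1. Ly6g, a GPI-anchored protein of the Ly6 family best known from neutrophils, stood at 9.97, 2.69, 50.1 and 4.73 RPKM. Its ratio of 0.0944 (0.0743 to 0.119) rested on 832 and 82 reads. Cxcr1, a chemokine receptor gene also known from neutrophils, had 224 reads and 13, at 0.295, 0.0695, 8.52 and 0.474 RPKM. Among the myeloid and dendritic markers, Lyz2 was at 0.345 and 0.0413 RPKM with the KO label. The whole marker list summed to 201 and 144 RPKM there. H2-Ab1, which encodes an MHC class II β chain, was at 4.56, 3.23, 59.6 and 19.3 RPKM, whereas Cd74, the class II invariant chain, was at 23.3 and 41.7 RPKM with the KO label. The part of other cell types in these differences was not tested.

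The adhesion genes Selp and Itga7 were also among the largest decreases, while the lists of integrin genes and of naive and homing genes showed no common direction. Selp, an adhesion receptor gene of platelets and endothelium, was at 1.80, 0.223, 13.3 and 2.03 RPKM. Itga7, the laminin-binding integrin α7 chain, was at 1.11, 0.128, 58.8 and 11.8 RPKM, a ratio of 0.200 (0.190 to 0.211). It was the 1 of 9 integrin genes past the 2-fold rule, which 0.911% of all genes passed downward. The other 8 lay between −0.44 and 0.29. The 17 naive and homing genes had a median of −0.07, with 7 above and 10 below 0. Ccr7 and Klf2, genes of naive and homing cells, were at 356 and 334 RPKM and at 18.4 and 17.9 RPKM.

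The interferon-induced transmembrane genes differed from the rest of the interferon response. Ifitm3, whose product blocks viral entry at membranes, stood at 3.32, 1.76, 42.7 and 7.77 RPKM. Ifitm1 stood at 0.502, 0.615, 7.25 and 0.695 RPKM, and Ifitm2 at 10.6, 4.59, 99.3 and 44.9 RPKM. These are close paralogs on chromosome 7, so reads can be uncertain by gene. The 20 tested other interferon-stimulated genes had 0 past the 2-fold rule, 10 above and 10 below 0, and a median of 0.02. Irf8, an interferon-regulated transcription factor of myeloid and B cells, stood at 10.6, 6.36, 31.2 and 7.14 RPKM. All 3 Ifitm genes and Irf8 were highest with the KO label at 37 °C.

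HIF targets formed the list with the lowest median. Of 24 tested members 7 were at least 2-fold lower, against 0.911% of all genes, 0 were 2-fold higher, and 22 lay below 0. The median was −0.76 with the KO label and −0.15 in WT, and the KO difference was below the WT one for 20 of the 24, as for 6917 of all 13715 genes. Egln3, an oxygen-sensing prolyl hydroxylase that marks HIF for degradation and is itself induced by it, was the most abundant, at 142, 113, 538 and 236 RPKM. Its ratio with the KO label was 0.437 (0.428 to 0.447). At 39.5 °C Egln3 was still above both WT libraries.

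Other HIF targets at the 2-fold rule served mitochondrial turnover, collagen synthesis and signalling. Bnip3, a mitophagy receptor, stood at 3.90, 1.49, 22.4 and 7.82 RPKM. P4ha2, a collagen prolyl hydroxylase, stood at 0.845, 0.855, 6.80 and 2.46 RPKM. Vegfa, the vascular endothelial growth factor gene, had log2 differences of −1.20 with the KO label and −1.22 in WT. Bnip3 and Vegfa were thus lower at 39.5 °C in both genotypes, and P4ha2 in 1 of them. Selenbp1, a selenium-binding protein with methanethiol oxidase activity whose tie to HIF is less settled, stood at 0.145, 0.114, 9.63 and 0.621 RPKM, a ratio of 0.0645 (0.0416 to 0.0960). Stc2, which encodes the hormone stanniocalcin 2, stood at 0.297, 0.0901, 6.04 and 1.62 RPKM. Ndrg1, a stress-induced gene of the same list, stood at 1.83, 5.05, 18.9 and 5.60 RPKM and so went opposite ways in the 2 genotypes. Hif1a itself was at 63.2 and 63.6 RPKM with the KO label.

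Glycolysis genes lay on the low side with smaller differences. Of 24 tested, 22 were below 0 and 2 were at least 2-fold lower, against 0.911% of all genes. The medians were −0.42 with the KO label and −0.26 in WT. Slc2a3, the high-affinity glucose transporter GLUT3, stood at 7.05, 3.77, 111 and 29.0 RPKM, a ratio of 0.262 (0.253 to 0.271). Aldoc, an aldolase, stood at 5.28, 1.63, 59.9 and 21.5 RPKM. The major transporter Slc2a1 was at 188 and 121 RPKM, and the pyruvate kinase gene Pkm at 956 and 634 RPKM. Both passed genes were above both WT libraries at either temperature, and the list summed to 3045, 2482, 5247 and 3977 RPKM. Lactate dehydrogenase Ldha differed little, at 874 and 783 RPKM.

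Genes of ER protein folding were lower almost without exception. Of 32 tested members 31 were below 0, against 51.3% of all genes, and the remaining one, Atf6, was at 0.13. The median was −0.66, against −0.33 in WT, and the KO difference was below the WT one for 27 of 32. Creld2 and Manf were the 2 members at least 2-fold lower, against 0.911% of all genes. Manf missed the rule with RPKM rescaled to the recovered reads, at −0.97. The list summed to 2456, 1731, 2885 and 1747 RPKM, so its sums at 39.5 °C were alike in the 2 genotypes. Single members, such as Hspa5 and Xbp1 below, differed between them. Creld2, a secreted disulfide isomerase-like factor, stood at 63.3, 30.9, 79.9 and 30.3 RPKM, and Manf, a survival factor retained in the ER, at 81.9, 55.6, 104 and 50.5 RPKM. Hspa5, the master ER chaperone BiP, stood at 233, 159, 201 and 123 RPKM, a ratio of 0.611 (0.595 to 0.627). Xbp1, the transcription factor spliced by IRE1, stood at 76.4, 51.0, 169 and 85.9 RPKM.

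Some promoters of the ER folding list carried a shared motif. The ER stress element, bound by NF-Y and ATF6, consists of CCAAT and CCACG separated by 9 bases. It was searched on both strands in the 250 bases before RefSeq gene starts (GRCm38.p6). Gene starts on a chromosome left out of the search were dropped before counting. Of the 13714 tested gene symbols, 7203 had an entry that remained. Every promoter count and share given here and below is of these remaining entries. A match was found for 13 of the 7203 genes (0.180%) and for 9 of the 27 list members with an entry (33.3%), namely Calr, Canx, Creld2, Derl3, Dnajc3, Hsp90b1, Hspa5, Pdia6 and Syvn1. The 5 with the largest decreases are shown, 5′ to 3′ on the gene's strand, with both parts of the element in capitals (on the opposite strand they read CGTGG and ATTGG).
Creld2 (chr15:88819500-88819558, plus strand): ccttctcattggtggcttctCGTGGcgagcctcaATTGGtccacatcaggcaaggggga
Derl3 (chr10:75893222-75893280, plus strand): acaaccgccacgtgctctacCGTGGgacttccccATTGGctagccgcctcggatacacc
Pdia6 (chr12:17266471-17266529, plus strand): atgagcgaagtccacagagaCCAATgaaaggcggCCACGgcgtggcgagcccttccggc
Calr (chr8:84847055-84847113, minus strand): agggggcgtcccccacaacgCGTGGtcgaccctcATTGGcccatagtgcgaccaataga
Hsp90b1 (chr10:86705513-86705571, minus strand): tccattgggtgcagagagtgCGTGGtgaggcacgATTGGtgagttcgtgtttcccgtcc

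Of the 13 genes with this element, 11 were lower at 39.5 °C with the KO label and 2 higher. Their median was −0.47, against 0.01 for all 7203 genes with a promoter entry. In WT these medians were −0.31 and −0.004. With the KO label Creld2 was lowest at −1.37, then Derl3 at −0.83, Pdia6 at −0.82, Calr at −0.75, Hsp90b1 at −0.72 and Hspa5 at −0.71. Calr, a calcium-binding lectin chaperone and the most abundant of them, stood at 607, 374, 660 and 391 RPKM. The 4 genes outside the list were Alg12 (−0.47), a mannosyltransferase of protein glycosylation, Adcy3 (−0.20), Pan2 (0.01) and Hnrnpa3 (0.05). Members of the list were known as targets of this element when the list was made, so the overlap describes the list. Of the 66 genes at least 2-fold lower with an entry, 1 had the element, and of the 55 higher genes 0.

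The core letters of the hypoxia response element, ACGTG, were found on either strand in promoters of 13 of 18 entries of the HIF list (72.2%), against 26.9% of all 7203. The share was also above that of all promoters in the glycolysis list (47.8%, 11 of 23), the ER folding list (40.7%, 11 of 27) and the HSF1 target list (35.3%, 6 of 17), and no difference between lists was tested. Among the 66 genes at least 2-fold lower the share was 30.3%, and among the 55 higher genes 16.4%. A 5-letter core occurs often by its length, and a start site within a gene can place the window inside the gene body. Examples from genes at the 2-fold rule follow, with the core in capitals as it reads on the gene's strand, CACGT being the opposite strand.
Bnip3 (chr7:138909589-138909633, minus strand): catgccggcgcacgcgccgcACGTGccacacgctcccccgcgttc
Egln3 (chr12:54204079-54204123, minus strand): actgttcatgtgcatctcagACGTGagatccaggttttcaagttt
Selenbp1 (chr3:94932859-94932903, plus strand): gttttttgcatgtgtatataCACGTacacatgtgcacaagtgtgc

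**Figure D3:**
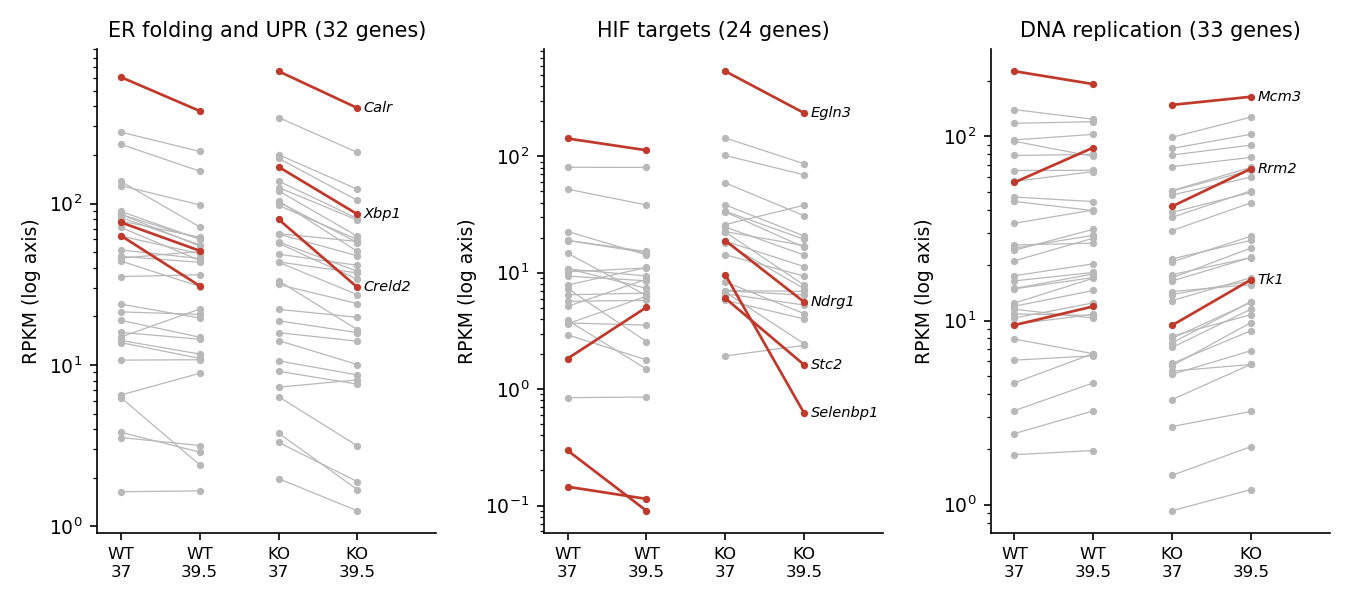
RPKM on a log axis for every tested member of 3 gene lists in the 4 libraries (WT and KO label at 37 and 39.5 °C); each line joins 1 gene at the 2 temperatures of a genotype and named genes are in red. With the KO label 31 of 32 ER folding genes and 22 of 24 HIF targets slope down, and all 33 DNA replication genes slope up, Tk1 from 9.42 to 16.7 RPKM.

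Cytosolic chaperones showed no common direction. Of 22 tested HSF1 targets, 10 were above and 12 below 0 with a median of −0.01, and with RPKM rescaled to the recovered reads the split was 13 to 9 and the median 0.05. None passed the 2-fold rule. The WT median was −0.24, and 19 of 22 had a difference with the KO label above the WT one. Hsph1, the HSP110 nucleotide exchange factor, was at 40.2, 18.0, 12.4 and 11.3 RPKM, and Hspa8, the constitutive HSC70, at 795, 307, 466 and 245 RPKM. Hsph1 was lower with the KO label than in WT at either temperature. Hspa1a had 23 and 18 reads and Hspa1b 40 and 33 with the KO label, and reads of these near-identical copies can be assigned to either. A heat shock element, here 3 alternating GAA and TTC units spaced by 2 bases, was found in 37 of 7203 promoters (0.514%) and in 2 of 17 entries of the list, Hspd1 and Hspe1, whose promoters share 1 region. These mitochondrial chaperone genes were at 53.5 and 60.7 RPKM and at 50.8 and 56.0 RPKM, and the 37 genes with the element had a median of 0.00.

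Amino acid supply genes under ATF4 were mostly lower in both genotypes, 21 of 28 below 0 with a median of −0.25, against −0.32 in WT. Trib3, a pseudokinase that restrains this response, was the only member past the 2-fold rule, which 0.911% of all genes passed downward. It stood at 2.07, 1.10, 8.27 and 2.73 RPKM. Atf4 itself was at 130.3 and 93.0 RPKM. Phgdh, the first enzyme of serine synthesis, was at 56.8 and 60.3 RPKM, a difference of 0.09 against −0.52 in WT.

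Core Th17 genes were split. Of 19 tested, 11 were above 0 and 8 below, with a median of 0.21 against 0.41 in WT, and the KO difference was below the WT one for 15. Il17a stood at 134, 686, 32.6 and 79.7 RPKM and Il23r, the receptor subunit that maintains Th17 cells, at 2.25, 6.66, 1.53 and 4.13 RPKM. Both passed the 2-fold rule upward, as 0.751% of all genes did. Ltb4r1, the leukotriene B4 receptor, passed downward, at 5.08, 9.03, 54.3 and 26.6 RPKM, and missed the rule with RPKM rescaled to the recovered reads. Il21 was at 65.6 and 61.2 RPKM, and Stat3, the IL-6 signal transducer, at 45.4 and 35.6 RPKM.

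Treg genes were lower as a list. Of 15 tested, 5 were at least 2-fold lower, against 0.911% of all genes, and 11 were below 0, with a median of −0.60 against −0.03 in WT. With rescaling to recovered reads 3 of the 5 remained past the rule, while Foxp3 and Izumo1r missed it. Lrrc32, which encodes GARP, the anchor of latent TGF-β on Treg cells, stood at 1.99, 0.674, 61.6 and 15.1 RPKM, a ratio of 0.246 (0.231 to 0.261). Gpr83, a neuropeptide receptor gene of Treg cells, stood at 5.69, 1.63, 19.5 and 4.43 RPKM. Izumo1r, the folate receptor 4 gene, stood at 31.9, 16.5, 163 and 79.6 RPKM. These 3 genes had their highest level with the KO label at 37 °C. Foxp3 had the opposite order between genotypes, at 7.80, 5.10, 1.98 and 0.477 RPKM, a ratio of 0.241 (0.162 to 0.352). Nrp1, a semaphorin receptor of thymus-derived Treg cells, went the other way, at 0.870, 7.59, 0.330 and 2.83 RPKM. The IL-2 receptor chain Il2ra was at 394 and 259 RPKM and Ctla4 at 239 and 189 RPKM.

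TGF-β pathway genes had no common direction, but single members stood out. Among 15 ligands, activators and receptors 8 were above 0, with a median of 0.01. Tgfb3, a TGF-β ligand, stood at 0.227, 0.398, 9.30 and 1.73 RPKM, a ratio of 0.186 (0.150 to 0.229). Eng, the co-receptor endoglin, stood at 1.56, 9.97, 3.71 and 8.83 RPKM, a log2 difference of 1.06 against 2.10 in WT. Acvrl1, the endoglin-associated type I receptor ALK1, was at 1.44, 1.63, 12 and 3.09 RPKM. Tgfb1 was at 190 and 172 RPKM and the receptors Tgfbr1 and Tgfbr2 at 1.60 and 1.98 and at 16.3 and 12.2 RPKM. Of the SMAD genes, Smad3 had the largest difference at −0.47 (41.9 and 29.9 RPKM), and 0 of 6 passed the rule. Among 19 target genes the median was −0.02, and 0.03 after rescaling to recovered reads. Smad7, the inhibitory SMAD induced by the pathway, was at 6.85 and 6.33 RPKM. Rgs16, a regulator of G protein signalling, stood at 15.5, 39.5, 6.45 and 20.5 RPKM.

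**Figure D4:**
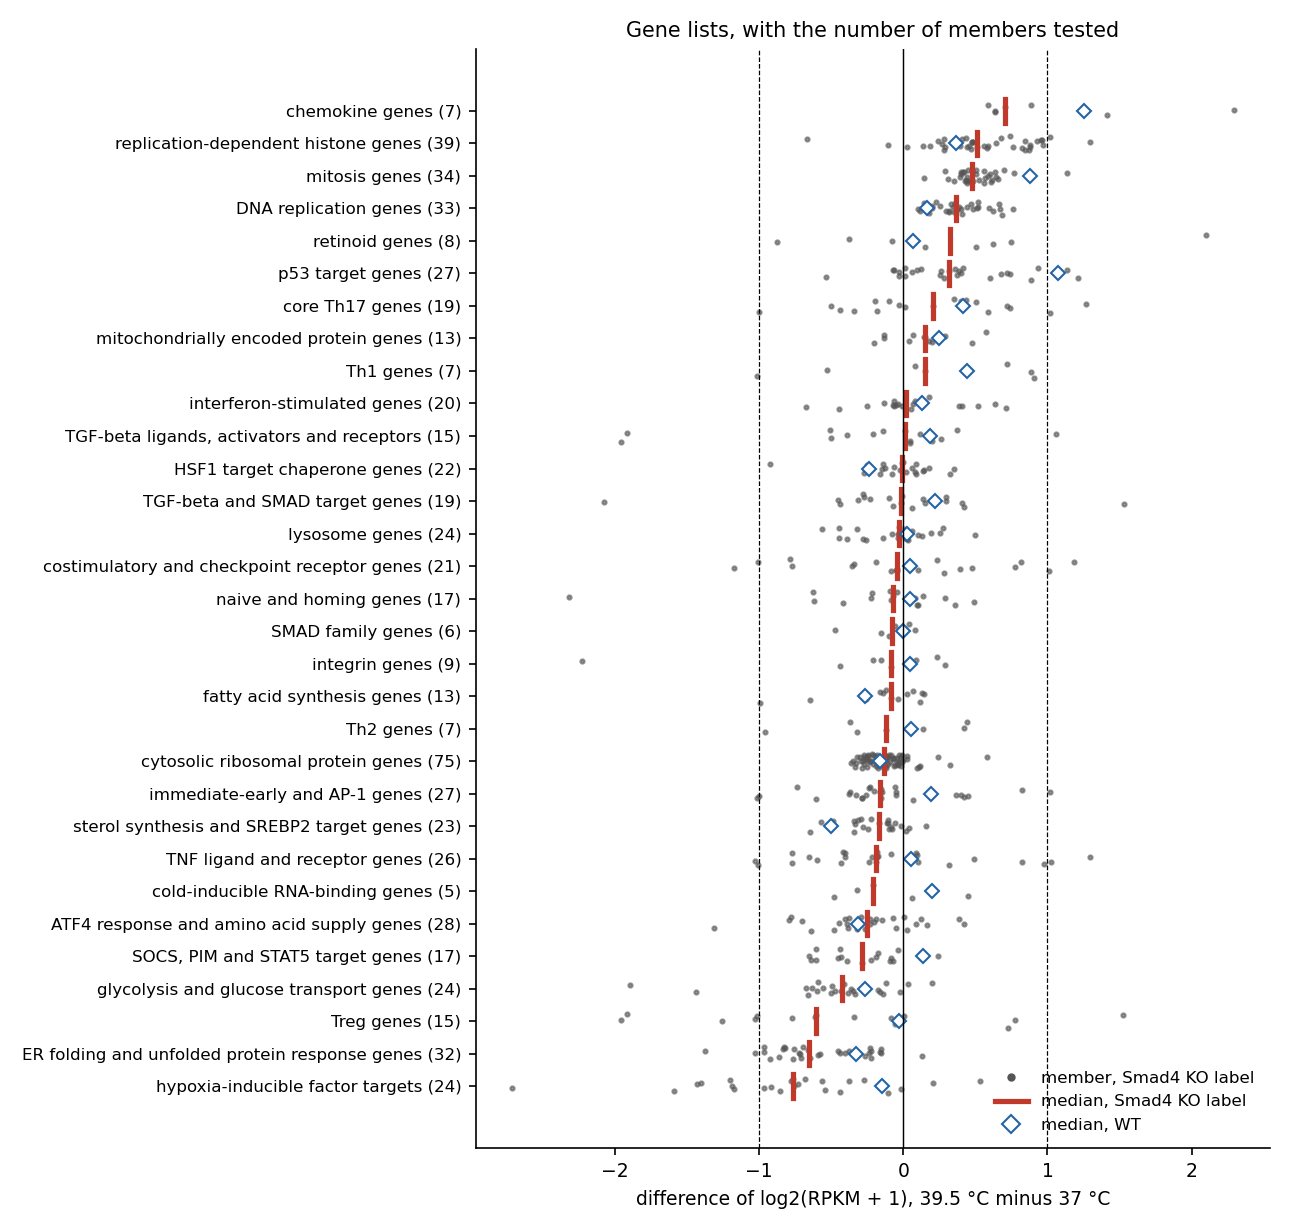
Log2 difference at 39.5 against 37 °C for every tested member of the gene lists with at least 5 tested members in the libraries labelled Smad4 KO (grey points), with the list median there (red bar) and in WT (open diamond); dashed lines mark the 2-fold rule. HIF targets and ER folding genes lie lowest at −0.76 and −0.66, and chemokine, histone, mitosis and DNA replication genes lie highest.

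Genes of DNA replication and mitosis were all above 0, and 1 mitosis gene, Psrc1, passed the 2-fold rule, as 0.751% of all genes did. All 33 DNA replication genes were above 0, against 48.7% of all genes, with a median of 0.37 and a range of 0.10 to 0.76. The WT median was 0.16, and the KO difference exceeded the WT one for 31 of 33. Tk1, thymidine kinase, was at 9.45, 11.9, 9.42 and 16.7 RPKM, and Mcm3, a subunit of the replicative helicase, at 226, 193, 148 and 164 RPKM. Mcm3 was lower with the KO label than in WT at both temperatures. All 34 mitosis genes were above 0 as well, with a median of 0.48, but here WT had the larger median of 0.88 and the KO difference was below the WT one for 32. Plk1, a mitotic kinase, was at 31.8, 61.0, 49.3 and 78.1 RPKM, and Top2a, the chromosome-untangling topoisomerase, at 18.5, 34.9, 18.3 and 25.2 RPKM. Of 39 histone genes 37 were above 0 and 2 were at least 2-fold higher, against 0.751% of all genes. The medians were 0.51 with the KO label and 0.37 in WT. Histone gene copies are near-identical and uncertain by gene.

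Targets of p53 had 22 of 27 members above 0, with a median of 0.31 against 1.08 in WT. Psrc1, also in the mitosis list, and Phlda3 were the 2 at least 2-fold higher with the KO label, against 14 members in WT. Of all tested genes 0.751% passed this rule upward with the KO label and 1.46% in WT. Phlda3, a repressor of AKT signalling, stood at 14.2, 65.1, 19.9 and 47.3 RPKM. Cdkn1a, the p21 cell cycle inhibitor, stood at 22.3, 178, 137 and 130.3 RPKM. At 37 °C it was therefore higher with the KO label than in WT, and its ratio between the temperatures was 0.950 (0.914 to 0.987) with the KO label. The apoptosis gene Pmaip1 (NOXA) was at 1.48 and 3.74 RPKM, and Mdm2, the p53 ubiquitin ligase, at 11.2 and 11.3 RPKM.

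Receptors of costimulation and the TNF family moved in both directions. Cd200, an inhibitory ligand, stood at 111, 162, 45.1 and 104 RPKM, a ratio of 2.30 (2.20 to 2.41), and Pdcd1, which encodes PD-1, at 18.9, 47.5, 11 and 23.1 RPKM. Vsir, the checkpoint protein VISTA, stood at 12.5, 14.8, 27.9 and 11.8 RPKM, and the costimulatory receptor Tnfrsf9 (4-1BB) at 51.5, 75.7, 198 and 98.0 RPKM. The 21 tested costimulatory and checkpoint genes had 2 past the rule in each direction, against 0.751% of all genes upward and 0.911% downward. Their median was −0.04. After rescaling to recovered reads the median was 0.02, with 2 higher and 1 lower, and Tnfrsf9 missed the rule at −0.94. Of 26 TNF family genes 2 were at least 2-fold lower, against 0.911% of all genes, and 0 after this rescaling. Tnfsf11, the RANK ligand that drives osteoclasts, was at 6.28, 18.2, 6.79 and 18.1 RPKM and so was alike in the 2 genotypes at both temperatures. Cd40lg, the signal of T cell help to B cells, was at 16.1, 48.9, 12.1 and 25.6 RPKM. SOCS, PIM and other STAT5 targets were below 0 in 16 of 17 with a median of −0.29, against 0.14 in WT, and 0 passed the rule. Socs3, the feedback inhibitor of IL-6 signalling, was at 16.4 and 10.2 RPKM and Pim1 at 193 and 147 RPKM.

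The difference between genotypes was taken as the log2 difference with the KO label minus that in WT. It was at least 1 in 92 genes, 0.671% of those tested, and at most −1 in 212, 1.55%. The lowest value was that of Cdkn1a, at −3.01. Other low values were those of Basp1 (−2.75), Ndrg1 (−2.69) and Selenbp1 (−2.67). Basp1, a membrane-associated signalling protein, stood at 7.57, 12.2, 24.2 and 4.79 RPKM. On the high side Mmp13, a collagenase, stood at 15.0, 1.98, 5.96 and 5.34 RPKM, a value of 2.29. Mmp10, stromelysin 2, stood at 9.40, 1.20, 17.4 and 14.4 RPKM, a value of 1.99. For these matrix proteases WT was lower at 39.5 °C, while the ratios with the KO label were 0.897 (0.755 to 1.06) and 0.833 (0.733 to 0.945). With no replicates, the difference between genotypes was not tested for any gene.

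**Figure D5:**
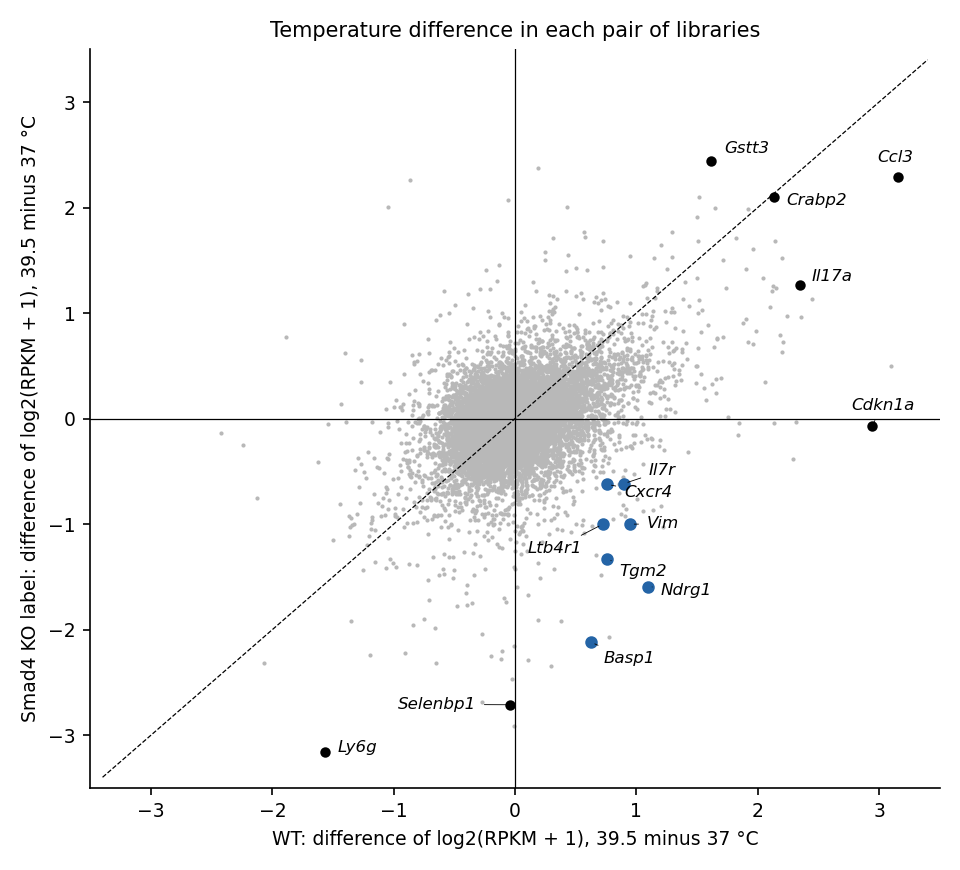
Log2 difference at 39.5 against 37 °C in WT (horizontal) and in the libraries labelled Smad4 KO (vertical) for every tested gene; the dashed line marks equal differences, and blue points are 7 named genes with opposite directions of at least 1.5-fold in each pair. Crabp2 lies near the line, Cdkn1a lies near 0 with the KO label and at 2.94 in WT, and the blue genes lie below 0 with the KO label and above 0 in WT.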

How the data were processed

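For each library the authors deposited a table of RPKM values, with 19555 rows in the same order. The submitters' processing notes name mm10 as the build and list edgeR, Subread, featureCounts, Bowtie2 and Trim Galore 0.4.4. Per the labels' protocols, RNA was extracted with Trizol and libraries made with a NEXTflex kit. No source used here gives the annotation release, strandedness, filters or settings, so overlapping genes on opposite strands cannot be told apart. RPKM is scaled to a library size, which in both libraries labelled Smad4 KO was below the recovered reads. A bias common to all libraries, such as loss of spliced reads, cancels in a ratio within a gene.

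Groups came from the genotype and treatment labels. Differences were taken between log2(RPKM + 1) values, for rows averaging 1 RPKM or more, with a 2-fold size rule. Whole reads were recovered from the RPKM values for 19554 of 19555 rows. Of 13143 rows with a GENCODE vM21 name, 12053 (91.7%) were whole within 0.01 reads at the annotated exon length. The library sizes behind RPKM, divided by recovered reads, gave 1.01, 1.06, 0.955 and 0.997. Recovered reads gave Clopper-Pearson 95% intervals (Python 3.11.15, scipy 1.17.1) and a floor of 3 reads where a library was at 0. Reads of PCR copies are not independent molecules. Coordinates are those of GENCODE on GRCm38, and promoter sequences and their coordinates are from RefSeq on GRCm38.p6. The recovery and the differences were tested on simulated data.

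There were 37 gene lists, 6 of them cell markers. Members and lists were chosen with earlier results of these data known, so no list is independent support. Named genes were the 20 largest differences each way, for each list its members past the rule and most abundant members, the 8 largest differences from WT each way, the 10 most abundant genes, pathway regulators and markers, rows at 0 in 1 library labelled Smad4 KO, and genes at the rule's edge. The Ddt and Gstt neighbours were picked after their values were seen, and predicted or clone-named rows are counted without names. Some genes that the rule names are not reported here. Alternatives were pseudocounts of 0.5 and 5, no minimum and a minimum of 5 RPKM, 3 rescalings, and rules of 1.5-fold and 3-fold. An alternative of at least 50 reads was chosen after seeing the data.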

Additional observations from a re-analysis of the deposited data

Results flagged for a closer look

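Of the 13715 tested genes, 16 differed in opposite directions with the KO label and in WT, by at least 1.5-fold each. All 16 had at least 50 reads in each pair, and 7 of them are reported here. Each group is 1 library, so the difference was not tested. For 14 of the 16 the library labelled Smad4 KO was lower at 39.5 °C while WT was higher, and for the other 2 the directions were the reverse. The 7 are all among the 14. Basp1 had a log2 difference of −2.12 with the KO label and 0.63 in WT. Ndrg1 had −1.59 and 1.10. Tgm2, a protein cross-linking transglutaminase at 15.7, 27.2, 228 and 89.9 RPKM, had −1.33 and 0.76. Ltb4r1, the leukotriene B4 receptor, had −1.002 and 0.72. Vim, the intermediate filament vimentin at 70.8, 138, 246 and 123 RPKM, had −1.001 and 0.95. The chemokine receptor Cxcr4 had −0.62 and 0.76, and the IL-7 receptor chain Il7r had −0.62 and 0.90. All 7 were highest with the KO label at 37 °C, as were 13 of the 16. A gene lower with the KO label and higher in WT can be highest only there or in WT at 39.5 °C. These counts are therefore a description of the selected genes.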

How the results depend on the processing

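The counts of genes higher, lower, above the WT difference and below it were 103, 125, 92 and 212. They were 25, 44, 11 and 64 with a pseudocount of 5 RPKM, and 50, 54, 37 and 92 with a minimum mean of 5 RPKM. At 1.5-fold they were 454, 522, 528 and 819, and at 3-fold 22, 34, 16 and 51. With at least 50 reads in the pair, a setting chosen after seeing the data, 37 genes exceeded and 121 were below the WT difference, while 78 were higher and 110 lower. A pseudocount of 0.5, no minimum mean, and 3 rescalings kept every count within 1.5 times. Rescaling to recovered reads moved the median of all genes to 0.05 and the calls to 115 higher and 102 lower. The median of the myeloid and dendritic markers turned to −0.063 with no minimum mean and to −0.72 with a minimum of 5 RPKM, and that of the Th1 genes to −0.23 with a minimum of 5 RPKM; these lists hold few genes, and the alternative tests others of them. No paired analysis was possible because each group has 1 library. Leaving out a library was not possible for the same reason.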

Other observations

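Lipid genes and translation genes differed little in the libraries labelled Smad4 KO. Of 23 sterol synthesis genes 20 were below 0, with a median of −0.16 against −0.50 in WT, and the KO difference was above the WT one for 20. The desaturase Scd1 was the lowest fatty acid synthesis gene, at 20.2 and 9.67 RPKM. Cytosolic ribosomal protein genes were below 0 in 67 of 75, with a median of −0.13, and in 53 of 75 after rescaling to recovered reads. Lysosome genes had a median of −0.03, or 0.02 after rescaling, with Glb1, β-galactosidase, at 23.7 and 33.8 RPKM. The cold-inducible RNA-binding gene Rbm3 was at 29.3 and 23.2 RPKM and Cirbp at 9.88 and 10.4 RPKM.

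Rows read at 37 °C and listed at 0 at 39.5 °C with the KO label were Il10 (32 reads), Lypd8 (25), Col3a1 (30), Stc1 (33) and Mchr1 (26). With 3 reads taken for the library at 0, Stc1, which encodes the hormone stanniocalcin 1, was 11.5-fold lower and Mchr1 9.05-fold lower. These values leave out the counting error of the reads at 37 °C and are not lower bounds. Dntt, the terminal transferase of lymphocyte precursors, had 157 reads and 5, at 0.258, 0.170, 4.18 and 0.128 RPKM. Bc1, a short non-coding RNA transcribed by RNA polymerase III, was the most abundant row past the 2-fold rule, at 653, 818, 1062 and 394 RPKM.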
